A study of Brugia malayi with 68 samples.

Results

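In the filarial nematode Brugia malayi, 150 genes were read at similar levels in adult males and in microfilariae and at lower levels in adult females. They were chosen from 11590 listed genes by their levels in worms from undosed hosts. Levels are given as CPM, a gene's read count over the total count of its library, times 1000000. A gene had to reach a mean of at least 5 CPM in both untreated males and untreated microfilariae, with a ratio of these means between 1/3 and 3. Of the 6257 genes that met these limits, the 150 with the highest ratio of the lower of the male and microfilaria means to the female mean plus 1 CPM were taken. Untreated levels of the 3 stages thus fixed the set, so they are described here and not tested. Libraries from drug-treated hosts were not used by the rule, but they share rounds with the untreated libraries.

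Mongolian gerbils carried B. malayi in the peritoneal cavity for 4 months. Some hosts then received 1 mg/kg of albendazole, some 6 mg/kg of diethylcarbamazine and some 0.2 mg/kg of ivermectin, and the rest were left untreated. Worms were collected 1 or 7 days later and parted into females, males and microfilariae, and the RNA of each sample was sequenced. Hosts without drug carry a DMSO control label, but the protocol describes them as untreated, the word used here. Each of 3 replicates was a round that ran all treatments, per the series' design text. The 68 libraries make 24 groups, 20 of them with 3 libraries and the 4 groups of day 7 microfilariae with 2. Of these, 17 libraries are untreated (6 female, 6 male and 5 microfilaria) and 51 come from drug-treated hosts (18, 18 and 15). How many worms were pooled in a library is not given in the sources used here.

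Microfilariae are the larvae that mated adult females release and that circulate in the host until a mosquito takes them up. An adult female's body is largely taken up by her reproductive tract, which holds oocytes, embryos and stretched microfilariae ready for release, while the male's holds the testis and sperm. RNA from a whole female is therefore a mixture of her own tissues and her brood. In bulk RNA, fewer cells of a type in females and less RNA per cell cannot be told apart. No file links an identifier to a gene name or function, and 0 of the 11590 identifiers occur in the reference table of 11688 genes. The members are therefore described by identifier, level and pattern, and no role is given to any of them.

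The libraries held between 2112032 and 37822431 counts (median 13426840), and 0 pairs of columns were identical. Replicate 3 of the untreated, diethylcarbamazine and ivermectin females at day 1 stood apart from the other females, with scaling factors (trimmed mean of M values, TMM) of 0.662, 0.569 and 0.682 where the next lowest female library was at 1.02. Among males, ivermectin day 7 replicate 3 had a factor of 0.787, where the next lowest was 0.931. It was kept in the fits without libraries that stood apart. Untreated day 7 female replicate 2 and 4 male libraries (albendazole day 1 replicate 1, diethylcarbamazine day 1 and day 7 replicate 1, ivermectin day 1 replicate 2) held more reads of the other sex than the rest. Lists of 150 genes highest in 1 stage measured this. The male list summed to 1067 CPM in that untreated female library and to 758 CPM in diethylcarbamazine day 1 female replicate 1, against a female median of 172 CPM and a male range of 37404 to 62482 CPM. The female list summed to between 3350 and 5067 CPM in the 4 male libraries, against a male median of 628 CPM and a female median of 34725 CPM. The lists share 0 genes with the members.

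In untreated worms the members were expressed in all 3 stages, and "low in females" is a relative statement. The median member stood at 12 CPM in females, 47.7 CPM in males and 46.0 CPM in microfilariae. The median ratio of male to female levels was 3.49, with a range from 1.99 to 39.6, and that of microfilariae to females was 3.41, from 1.93 to 30.4. Of the 150 members, 4 had a female mean under 1 CPM, 61 lay between 1 and 10, 73 between 10 and 100, and 12 at 100 CPM or more. All 150 had counts in every male and microfilaria library, and 4 had a count of 0 in at least 1 female library. The ratio that ranked them ran from 12.1 to 1.91 over the list, with a median of 2.61. The limit of 150 does not mark a gap: the last members inside, WBGene00225867 and WBGene00228298, both had a ratio of 1.913, and the first genes outside, WBGene00222310 and WBGene00226308, had ratios of 1.912 and 1.911.

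The highest ratios belonged to WBGene00268987 and WBGene00230462. In untreated worms WBGene00268987 ran from 2.20 to 5.34 CPM in 6 females, with a median of 3.45. It ran from 34.3 to 68.8 CPM in 6 males (median 56.5) and from 47.2 to 70.5 CPM in 5 microfilaria libraries (median 56.3). WBGene00230462 ran from 0.826 to 3.08 CPM in females (median 1.66), from 24.5 to 58.8 CPM in males (median 52.1) and from 25.8 to 36.3 CPM in microfilariae (median 32.8). For both genes every male and microfilaria library was above every female library.

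WBGene00220387 gave the most reads. CPM are not corrected for gene length, so this orders reads and not transcripts. Its untreated median was 2914 CPM in females (range 2183 to 3294), 6396 CPM in males (2640 to 8681) and 8936 CPM in microfilariae (6508 to 9898). The female and male ranges overlapped because male replicate 3 of day 1 was at 2640 CPM. Over drug-treated libraries, the mean CPM of this gene was 32.5% (female), 25.8% (male) and 29.7% (microfilaria) of the members' mean summed CPM. The next, WBGene00225623, had untreated medians of 531, 1538 and 3636 CPM in the same order.

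**Figure D1:**
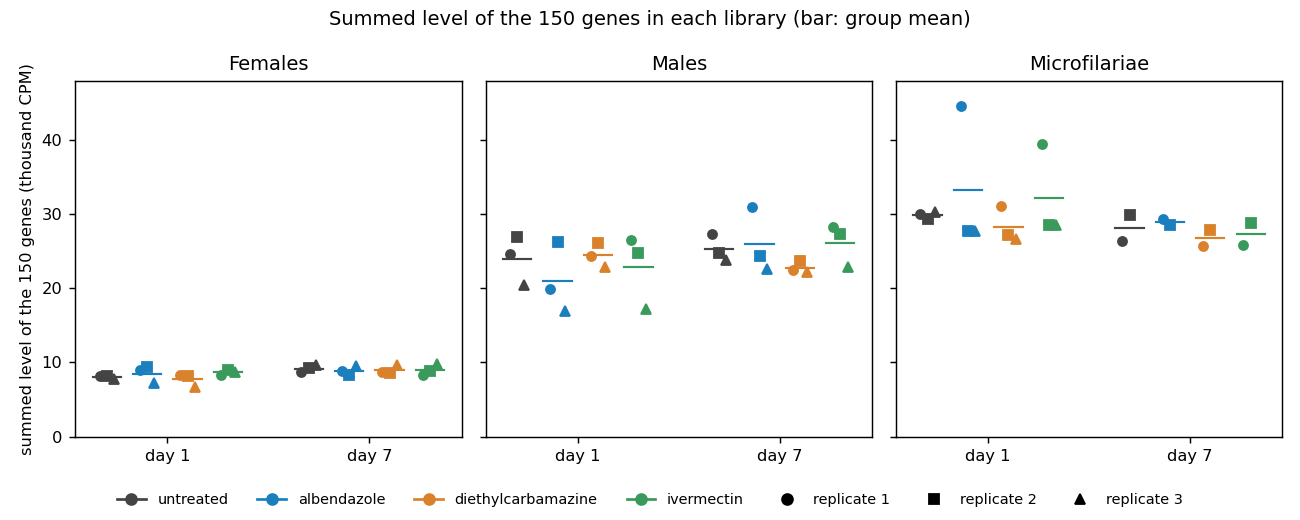
Summed CPM of the 150 members in each of the 68 libraries (vertical axis, in kilo-CPM), by stage, day and treatment; symbols give the replicate number and bars the group means. Female libraries lie between 6705 and 9811 CPM, below all male libraries (16891 to 31014) and all microfilaria libraries (25664 to 44575).

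In worms from drug-treated hosts, whose libraries the rule did not use, 149 of the 150 members were called higher in both males and microfilariae than in females. The median member was at 11.4 CPM in 18 female libraries, 47.8 CPM in 18 male libraries and 46.7 CPM in 15 microfilaria libraries. The median ratio to females was 3.64 for males and 3.69 for microfilariae. Over the 6257 genes that met the level and ratio limits, these medians were 0.894 and 0.958. Calls were made at an adjusted p under 0.05 in edgeR (quasi-likelihood fit, Benjamini-Hochberg over 10876 genes). In males 150 of 150 members were called higher than in females, where 41% of all genes were, and 84.6% of all genes differed in either direction. In microfilariae 149 of 150 were called higher than in females, where 39.3% of all genes were and 77.8% differed in either direction. The median log2 fold change of the members was 1.94 in males and 2.00 in microfilariae, and that of all genes was -0.05 and 0.01.

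Both differences held together in most members. Called higher in males and in microfilariae were 149 of 150 members, against 20.1% of all genes. With a log2 fold change above 1 in both there were 145 members, against 6.52% of all genes, and above 2 in both there were 45, against 1.94%. The libraries themselves separated less sharply. Every drug-treated male library was above every drug-treated female library in 123 members (17.7% of all listed genes), and every microfilaria library was above every female library in 133 (11% of all listed genes). Both held in 117 members, against 2.58% of all listed genes. Taking every drug and day separately, between 145 and 149 members were called higher in males and between 143 and 149 in microfilariae, with medians from 1.84 to 2.12 and from 1.92 to 2.03. Of all genes, 29.5% to 32.7% were called higher in males and 21.7% to 28% in microfilariae over the 6 pairs of drug and day. In the ivermectin group of day 1 there was 1 member called lower in microfilariae.

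**Figure D2:**
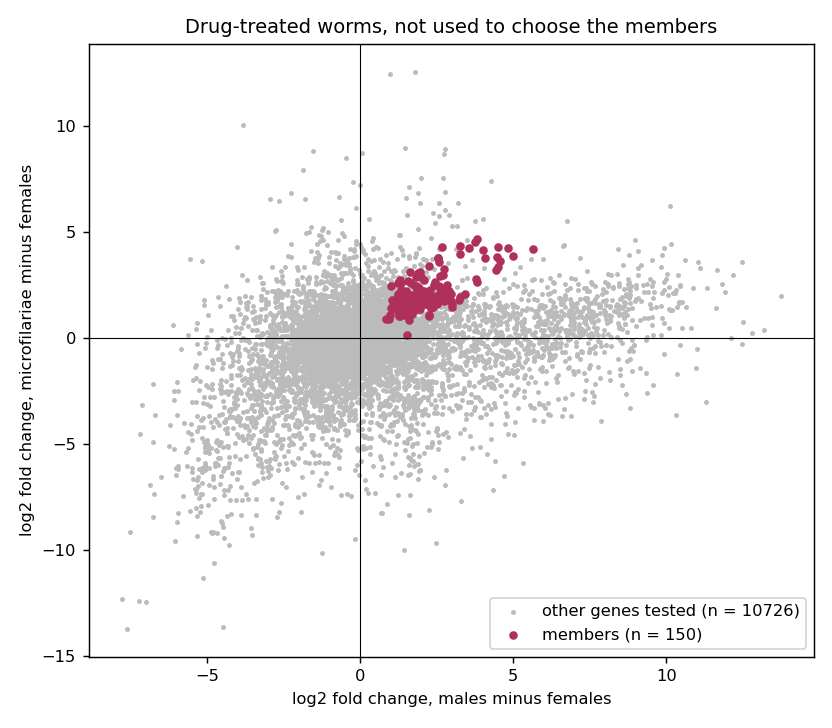
Log2 fold change of males over females (horizontal axis) and of microfilariae over females (vertical axis) in drug-treated worms for the other genes tested (grey) and the 150 members (red). The members lie in the upper right, with a median of 1.94 and 2.00, and the member nearest to 0 on the vertical axis is at 0.15.

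Among members whose male and female libraries did not overlap, WBGene00268730 had the smallest p against females. In drug-treated females it ran from 1.03 to 4.26 CPM with a median of 3.12, and in males from 94.5 to 191.5 CPM with a median of 134.0. The lowest male library was thus more than an order of magnitude above the highest female library. The male excess was 5.65 on the log2 scale (SE 0.11, edgeR adjusted p = 2.55e-34). Microfilariae lay in between, from 37.5 to 77.6 CPM with a median of 47.5. WBGene00224980 had a similar order, with medians of 1.98 CPM in females, 57.7 in males and 26.3 in microfilariae, and a male excess of 4.99 on the log2 scale (SE 0.11, edgeR adjusted p = 5.29e-32).

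Against microfilariae, the smallest p belonged to WBGene00268507 and WBGene00268987. WBGene00268507 ran from 2.20 to 7.43 CPM in drug-treated females (median 4.23) and from 67.0 to 115.9 CPM in microfilariae (median 81.8). The excess over females was 4.34 on the log2 scale (SE 0.10, edgeR adjusted p = 1.9e-30). Males lay between them at 31.2 to 50.4 CPM (median 41.4). WBGene00268987 ran from 1.61 to 4.64 CPM in females and from 40.3 to 88.5 CPM in microfilariae, an excess of 4.13 on the log2 scale (SE 0.10, edgeR adjusted p = 3.15e-30).

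Ratios to females were highest in the members with few reads in females. The limit of 5 CPM in males and microfilariae and the 1 CPM added to the female mean raise the ratio demanded at low female levels. They set no upper bound on it. How far the rule accounts for the order below was not tested, so these values are a description. The 4 members with an untreated female mean under 1 CPM had a median drug-treated ratio of 13.5 in males and 21.5 in microfilariae. The 61 members between 1 and 10 CPM had medians of 5.10 and 4.52, the 73 between 10 and 100 had 3.30 and 3.36, and the 12 at 100 CPM or more had 2.21 and 2.67. In untreated males, the 12 members with the highest female levels made up 57.3% of the members' summed CPM.

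A single member was not called in microfilariae. WBGene00268299, at rank 140 and named after its values were seen, had 1152 CPM in ivermectin day 1 female replicate 1 and between 31.6 and 117 CPM in the other 23 female libraries. In drug-treated microfilariae it ran from 32.9 to 243 CPM with a median of 102. It was not called higher there than in females (log2 fold change 0.15, SE 0.30, edgeR adjusted p = 0.658). Its level in drug-treated males had a median of 244 CPM (range 106 to 662), above females by 1.52 on the log2 scale (SE 0.29, edgeR adjusted p = 1.11e-05). With that 1 female library left out, its female mean was 69.1 ± 26.7 CPM (SD, n = 23).

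Males and microfilariae did not have equal levels of most members. By edgeR, 57 members were called higher in drug-treated males than in microfilariae and 52 lower, 109 of 150 in all, where 85.5% of all genes tested were called (43% higher and 42.5% lower). The rule bounds the untreated ratio, and the median log2 difference was 0.02. The ratio of drug-treated means stayed between 1/3 and 3 in 149 members. At least 2-fold differences were found in 16 of the 57 and 15 of the 52. The 41 members not called had differences of at most 0.32 on the log2 scale.

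The members with the smallest p in this comparison illustrate its size. WBGene00231639 ran from 38.5 to 72.5 CPM in drug-treated males and from 23.2 to 30.9 CPM in microfilariae (log2 fold change 1.15, SE 0.06, edgeR adjusted p = 2.22e-19). WBGene00231313 had medians of 80.9 and 29.3 CPM (1.51, SE 0.09, edgeR adjusted p = 4.48e-18). In the other direction, WBGene00221931 ran from 10.9 to 18.1 CPM in males and from 32.0 to 54.2 CPM in microfilariae (-1.5, SE 0.08, edgeR adjusted p = 2.96e-20). WBGene00234046 ran from 628 to 1049 CPM and from 1987 to 2886 CPM (-1.43, SE 0.08, edgeR adjusted p = 1.04e-19). In these 4 genes the ranges of males and microfilariae did not overlap, and the highest drug-treated female library was below the lowest library of both.

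Females had reads of the members at a sizeable share of the other stages' levels. Over drug-treated libraries, the median member's female level was 27.5% of its male level and 27.1% of its microfilaria level. The male list's female level was 0.308% of its male level, and the microfilaria list's was 9.82% of its microfilaria level. Summed over the microfilaria list, females had between 5798 and 9988 CPM, against 51371 to 76220 CPM in microfilariae and 4872 to 11257 CPM in males. How much of the members' female level comes from larvae in the uterus was not tested.

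**Figure D3:**
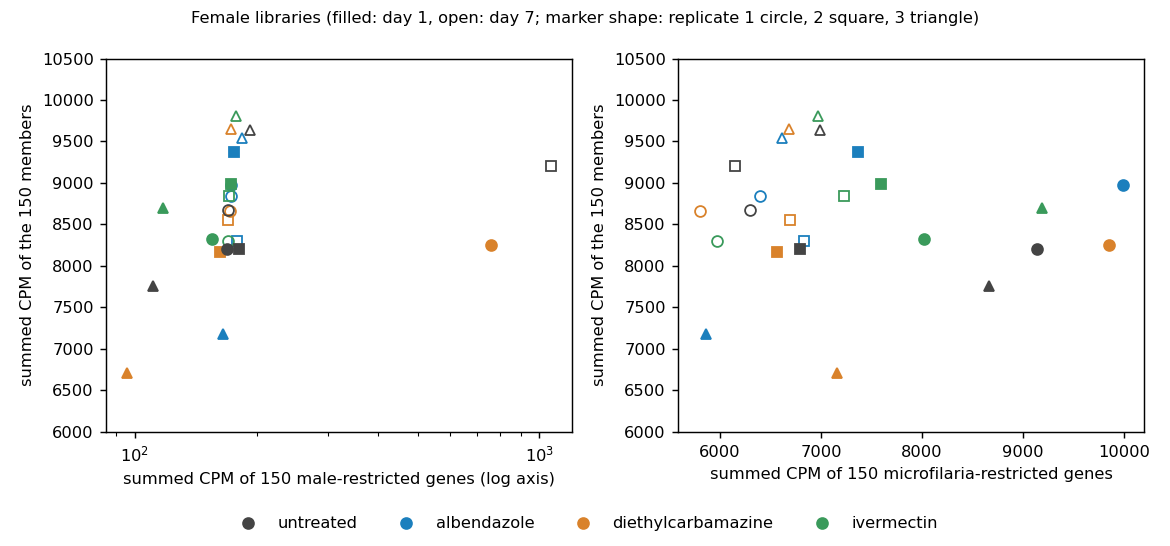
Summed CPM of the 150 members in the 24 female libraries against the summed CPM of the 150 male-list genes (left, log axis) and of the 150 microfilaria-list genes (right). The library with 1067 CPM of the male list, untreated day 7 replicate 2, has 9201 CPM of the members, inside the range of the other day 7 females.

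No drug comparison called a member. In 18 comparisons, drug libraries were tested against untreated libraries of the same stage and day. The drugs share these untreated libraries, which also served to choose the members. EdgeR's quasi-likelihood test called 0 members, where 0% of all genes were called in each comparison, and DESeq2 called 0 members. These fits had no term for the replicate number, so differences between rounds added to their spread. With that number as a block within day, edgeR again called 0 members. Of all genes it then called 0.177% in microfilariae 1 day after ivermectin and 0% in the other comparisons. In females 149 members passed the count filter, and in males and microfilariae 150. At an unadjusted p under 0.05, edgeR without the block gave between 0 and 17 members per comparison. The 17 were in males 1 day after ivermectin, 11.3% of members against 8.98% of all genes. The members' median log2 fold changes ran from -0.14, in microfilariae 7 days after diethylcarbamazine, to 0.10, in microfilariae 1 day after albendazole. In the first of these 108 of 150 members were below 0 and in the second 99 were above 0.

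For most drugs and stages, summed CPM of the members at day 1 differed little beside the spread of the drug group. In day 1 females it was 8055 ± 258 CPM untreated (SD, n = 3, as for the values that follow), 8506 ± 1170 after albendazole, 7706 ± 868 after diethylcarbamazine and 8670 ± 329 after ivermectin. In day 1 males it was 24031 ± 3309, 21032 ± 4797, 24454 ± 1608 and 22851 ± 4936 CPM in that order. In day 1 microfilariae it was 29931 ± 500, 33344 ± 9727, 28280 ± 2425 and 32184 ± 6346 CPM. Each of these drug means lay within 1 SD of its own group from the untreated mean, except for ivermectin in females. The spread with albendazole and ivermectin in microfilariae came from replicate 1, at 44575 and 39511 CPM. In those 2 libraries WBGene00220387 was at 18098 and 15035 CPM, against 5826 to 9898 CPM in the other 18 microfilaria libraries. At day 7 the only drug group without overlap with its untreated libraries was males with diethylcarbamazine. Their summed CPM ran from 22170 to 23655, against 23803 to 27334 in untreated day 7 males. Summed levels were not tested.

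The count in males rested on 1 untreated library. Without untreated day 1 male replicate 1, edgeR called 27 members over the 6 male comparisons, 26 of them higher with drug and 1 lower. At day 1 these were 3 with albendazole, 12 with diethylcarbamazine and 12 with ivermectin. That is 2%, 8% and 8% of members, where 0.731%, 1.93% and 3.12% of all genes were called. The members' medians in these comparisons were -0.01, 0.04 and 0.03 without that library. The untreated arm then held 2 libraries, replicates 2 and 3, while the drug arms kept replicate 1, so rounds were not balanced. Untreated replicate 2 had the lowest male list sum of all males, at 37404 CPM. Untreated replicate 3 had the lowest mean log2(CPM + 1) of the members among males, at 5.447. Whether these 2 libraries account for the calls was not tested.

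**Figure D4:**
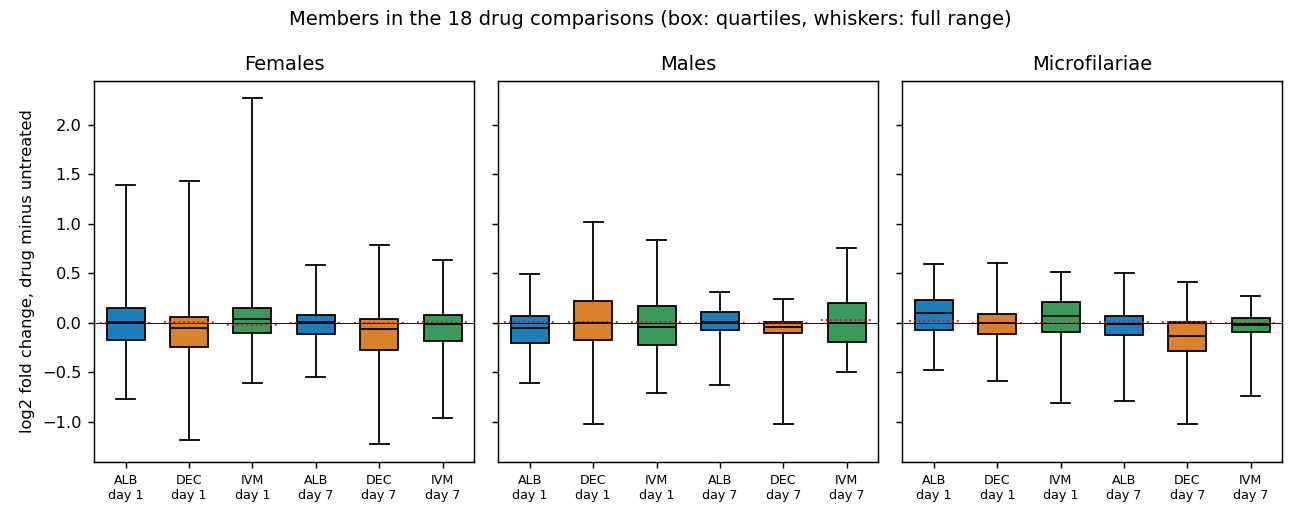
Log2 fold change of drug over untreated for the members (149 in females, 150 in males and microfilariae) in the 18 comparisons; boxes give quartiles, whiskers the full range and red dotted lines the median of all genes tested. Every box includes 0, with medians from -0.14 to 0.10, and the longest whisker, to 2.27 in day 1 females with ivermectin (IVM), is WBGene00268299; ALB is albendazole and DEC diethylcarbamazine.

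Between day 1 and day 7, 0 members were called in drug-treated females, males or microfilariae by edgeR, where 0% of all genes were called in each, and DESeq2 also called 0 members. An unadjusted edgeR p under 0.05 was found for 11 members in females (7.38%, against 12.1% of all genes), 6 in males (4%, against 3.19%) and 18 in microfilariae (12%, against 4.87%). Of the 18 in microfilariae, 16 were lower at day 7. The members' median difference there was -0.08, with 110 of 150 below 0, while the median of all genes was -0.01. With the replicate number as a block within day, edgeR called 10 members in females, 6 higher and 4 lower at day 7, which is 6.71% of members against 13.6% of all genes. In untreated worms, summed CPM went from 8055 ± 258 at day 1 to 9172 ± 483 at day 7 in females and from 24031 ± 3309 to 25325 ± 1815 in males (SD, n = 3). In untreated microfilariae it was 29931 ± 500 at day 1 (SD, n = 3), with 26449 and 29862 CPM in the 2 libraries of day 7.

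Members differed between rounds in females and microfilariae, at shares on either side of those of all genes. The calls depended on the libraries used in every stage, and in day 1 males also on the test. EdgeR's test of any difference among replicate numbers called 74 of 147 members in day 1 females (50.3%, against 55.1% of all genes). It called 60 of 150 in day 1 microfilariae (40%, against 31.9%). In males it called 0 of 150 members at day 1 and at day 7, where 0.0392% and 0% of all genes were called. Within a stage and day, replicate 3 was set against the mean of replicates 1 and 2, with treatment in the model. In day 1 females 67 of the 147 members tested were called by edgeR, 41 higher and 26 lower in replicate 3. That is 45.6% of members, where 53.5% of all genes were called. The count was 24 with drug-treated libraries only (16.3%, against 19.8%), 12 without diethylcarbamazine (8.16%, against 14.4%) and 16 without ivermectin (10.9%, against 16.5%). Without albendazole it rose to 82 (55.8%, against 68%). The split into 41 higher and 26 lower depends on the scaling. With column totals alone 10 were higher and 62 lower, and the median of all genes then shifted to -0.53. In day 7 females 15 members were called, 14 higher and 1 lower (10.2%, against 6.44% of all genes). There were 3 with drug-treated libraries only (2.01%, against 1.08%) and 3 without diethylcarbamazine (2.03%, against 0.903%). The difference between the replicate 3 contrasts of day 1 and day 7 in females was itself called in 67 of 149 members (45%, against 49.8% of all genes).

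Of the 4 day 1 female libraries of replicate 3, 3 stood apart. With those left out the arm is 1 library, albendazole replicate 3, assumed to vary like the others, and few calls can be made. EdgeR then called 0 members and 0.173% of all genes, and 23 members had an unadjusted p under 0.05. Of the 67 members called with all libraries, 49 kept their sign, and their median absolute log2 difference went from 0.72 to 0.30. WBGene00230800 was at -0.72 (edgeR adjusted p = 0.123) and WBGene00227825 at -0.41 (edgeR adjusted p = 0.399) in that fit. The male list summed to between 96.0 and 118 CPM in these 3 libraries, below the female median of 172 CPM. The 100 genes with the most reads took 19.7% to 20.8% of their counts, against 12.3% in albendazole replicate 3. Whether this accounts for the members' levels there was not tested.

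In day 1 males 10 of 150 members were called in replicate 3, 1 higher and 9 lower (6.67%, against 3.42% of all genes). DESeq2 called 30, of which 26 were lower (20%, against 15.1% of all genes). In day 7 males edgeR called 0 members, where 0% of all genes were called, and DESeq2 called 0. An unadjusted edgeR p under 0.05 was found for 8 there, 5.33% against 4.48% of all genes. The day 1 male count was 0 without the albendazole libraries, without the ivermectin libraries, with drug-treated libraries only and without the male libraries that stood apart. In these fits at most 5 of all genes were called. Without the diethylcarbamazine libraries the count rose to 15 (10%, against 3.56% of all genes). Without the libraries that stood apart, the 10 members kept their sign, with a median absolute log2 difference of 1.21 against 1.06 with all libraries. Without ivermectin, 11 members were called in day 7 males (7.33%, against 11.1% of all genes). That fit leaves out ivermectin replicate 3, the male library with the lowest TMM factor. In it the 100 genes with the most reads took 21.3% of counts. Whether that library accounts for the count of 0 was not tested.

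WBGene00230800 was lower in replicate 3 of day 1 in both sexes. In day 1 females it was at 40.4 CPM with diethylcarbamazine, 54.2 with ivermectin and 56.0 untreated, and at 143 with albendazole. Replicates 1 and 2 lay between 193 and 274 CPM, above all 4. Its log2 difference was -1.28 (SE 0.16, edgeR adjusted p = 0.00267). In day 1 males replicate 3 was at 128 CPM with albendazole, 149 with ivermectin, 245 untreated and 488 with diethylcarbamazine, against 631 to 950 CPM in replicates 1 and 2 (-1.71, SE 0.27, edgeR adjusted p = 0.0453). The library nearest to the other replicates was therefore the albendazole one in females and the diethylcarbamazine one in males. In day 7 females the gene was higher in replicate 3, at 247 to 308 CPM against 170 to 231 CPM (0.30, SE 0.07, edgeR adjusted p = 0.0337).

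WBGene00227825 was also lower in day 1 female replicate 3, at 10.5 CPM with diethylcarbamazine, 19.6 untreated, 21.6 with ivermectin and 40.7 with albendazole. Replicates 1 and 2 lay between 42.2 and 58.1 CPM (-0.70, SE 0.14, edgeR adjusted p = 0.00368). CPM are not scaled by TMM, so in day 1 females the CPM of this gene and WBGene00230800 differ more than the fitted values. By CPM, 0 of the 147 members had all of replicate 3 above the other libraries, and 15 had all of it below. None of the 41 members called higher there could therefore be named. In day 1 males WBGene00255534 was at 0.957 CPM untreated, 2.62 with albendazole, 2.84 with ivermectin and 12.4 with diethylcarbamazine in replicate 3, against 12.9 to 24.2 CPM in the others (-2.15, SE 0.39, edgeR adjusted p = 0.0453). For WBGene00220387 the diethylcarbamazine library was again the highest of replicate 3. It was at 2329 CPM with albendazole, 2478 with ivermectin, 2640 untreated and 5858 with diethylcarbamazine, against 4461 to 7655 CPM (-1.02, SE 0.22, edgeR adjusted p = 0.0478).

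**Figure D5:**
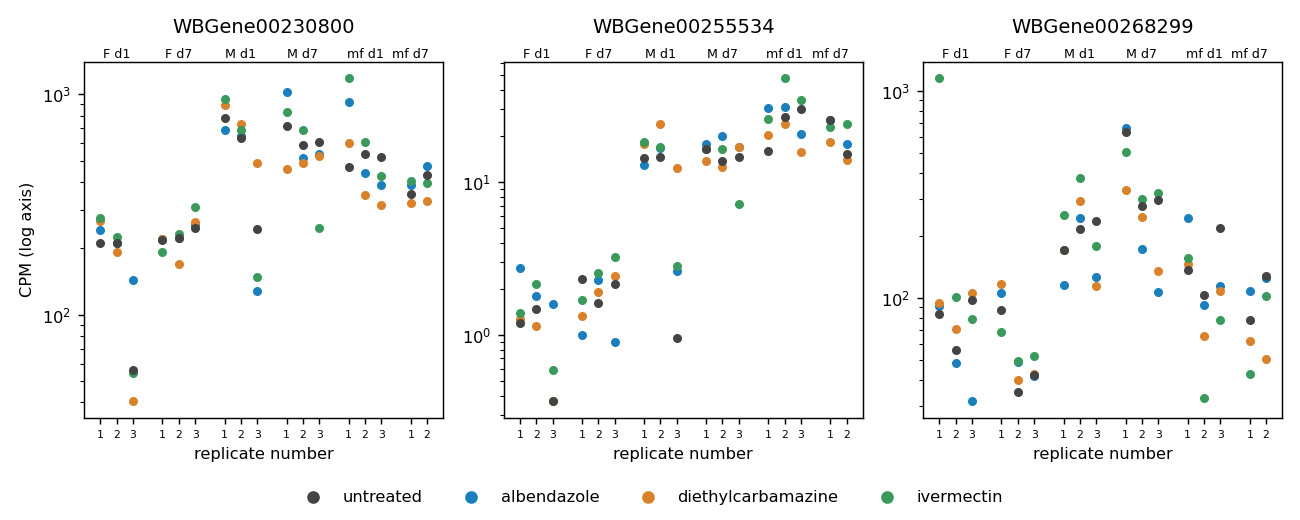
CPM (log axis) of WBGene00230800, WBGene00255534 and WBGene00268299 in all 68 libraries, by stage (F female, M male, mf microfilaria), day (d1, d7) and replicate number, with colours for treatment. In day 1 males the albendazole, ivermectin and untreated libraries of replicate 3 lie lowest for the first 2 genes, and the third has 1 female library at 1152 CPM.

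Across the 147 members tested in both sexes, the replicate 3 differences of day 1 females and day 1 males had the same sign in 97, with Pearson's r of 0.48 and Spearman's rho of 0.51. Members are not independent replicates. The libraries share the round and day, and whether male and female libraries share hosts is not given in the sources used here. Over all 9634 genes tested in both, 64.5% had the same sign, against 66% of members. Correlations were not computed over all genes, so whether they are particular to the members was not tested. Called lower in both sexes were 4 members (2.72%, against 1.42% of all genes). With day 1 microfilariae, the correlation of the female differences was -0.14.

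In microfilariae, 19 of 150 members were called in replicate 3 of day 1, 14 higher and 5 lower (12.7%, against 17.9% of all genes). With column totals alone 8 were higher and 6 lower. There were 5 without albendazole (3.33%, against 5.51%) and 4 without ivermectin (2.67%, against 3.03%). WBGene00268617 was at 10.8 to 26.2 CPM in the 4 replicate 3 libraries and at 4.34 to 9.99 CPM in the other 8 (1.35, SE 0.21, edgeR adjusted p = 0.00219). WBGene00225710 was at 36.1 to 44.5 CPM against 11.3 to 32.5 CPM (0.70, SE 0.17, edgeR adjusted p = 0.0143). At day 7, with 2 replicates, 35 of 150 members were called in replicate 2 against 1, 10 higher and 25 lower (23.3%, against 17.8% of all genes). There were 9 without albendazole (6%, against 3.47%), 19 without ivermectin (12.7%, against 8.88%) and 14 with drug-treated libraries only (9.33%, against 5.83%). Without diethylcarbamazine the count rose to 45 (30%, against 25.6%). WBGene00228089 was at 13.8 to 29.6 CPM in the 4 libraries of replicate 2 and at 37.7 to 60.1 CPM in the 4 of replicate 1 (-1.02, SE 0.13, edgeR adjusted p = 0.00203). WBGene00224895 was at 31.3 to 39.0 CPM and 48.8 to 73.9 CPM in that order (-0.76, SE 0.12, edgeR adjusted p = 0.00344). In the other direction WBGene00222921 and WBGene00229807 differed by 0.34 each (SE 0.08 each, edgeR adjusted p = 0.0128 and 0.0161).

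Over the 6 combinations of stage and day, 50 members were called in no replicate contrast, 64 in 1, 27 in 2, 8 in 3 and 1 in 4. These are 33.3%, 42.7%, 18%, 5.33% and 0.667% of members, close to the 34.7%, 43.7%, 17.7%, 3.54% and 0.308% of the 10727 genes tested in at least 1 contrast. Within groups, the members' spread was close to that of other genes in females and wider in males. The median within-group SD on the log2(CPM + 1) scale was 0.37 in females, 0.26 in males and 0.24 in microfilariae. For the 6257 genes that met the level and ratio limits it was 0.35, 0.19 and 0.21. These values are a description, with no test of the difference.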

How the data were processed

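Worm RNA was sequenced; per the labels' protocols the libraries keep strand (Illumina TruSeq). The authors deposited 1 table of raw read counts per gene with 1 column per library. The submitters' processing notes name TopHat2 2.0.14 along with HTSeq 0.6.1p1, with no roles; genome build, annotation and counting options are not given in the sources used here. Reads of near-identical gene copies may be split between them.

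Columns were matched to samples by the names in the labels. The members and the stage lists were chosen with earlier results of these data known. Each stage list took the 150 genes of at least 5 untreated CPM with the highest ratio of that stage's mean to the larger of the other means plus 1. Counts were tested with edgeR 4.0.16 (R 4.3.3, limma 3.58.1): filterByExpr (minimum count 10, minimum total 15), TMM scaling, quasi-likelihood F tests, two-sided, Benjamini-Hochberg adjustment over all genes tested, threshold 0.05. Stage contrasts used group means of the 51 drug-treated libraries, drug and day contrasts 1 fit per stage, and replicate contrasts 1 fit per stage and day. Stage, drug and day contrasts had no term for the replicate number, except in the block alternative. Fits were checked on simulated counts. DESeq2 1.42.0, other scalings, no count filter, left-out libraries or replicates and a replicate block were alternatives. Figures were drawn with Python 3.11.15 and matplotlib 3.10.9.

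Per comparison at most 2 members in each direction are named, those with the smallest p past the threshold whose libraries do not overlap, besides the 2 with the highest rule ratio, the 2 with the highest untreated level and the genes at the limit of 150. The replicate number pairs samples because the design text calls each replicate a round. Deviations from group means of same-numbered libraries correlated on average at 0.55 and 0.39 in day 1 and day 7 females, 0.24 and 0.08 in males, and 0.47 and 0.37 in microfilariae. The labels do not say whether libraries of a group came from separate animals, so p-values measure the spread between these libraries. Sequences are not shown.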

Additional observations from a re-analysis of the deposited data

Results flagged for a closer look

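A test for a library far from the others was run on 63 groups of 4 to 6 libraries, and 8 stood out. Chance gives about 1 in 20 for a single group. The groups share libraries and genes, so the 8 cannot be set against that share. In untreated microfilariae the members' summed level was 26449 CPM in day 7 replicate 1, and WBGene00220387 was at 6508 CPM in the same library. In untreated females WBGene00225623 was at 1113 CPM in day 1 replicate 3, 1 of the 3 female libraries that stood apart. In day 1 female replicate 1 the summed level was 8976 CPM with albendazole. The members' mean log2(CPM + 1) was 3.86 with diethylcarbamazine in day 7 female replicate 2, the library with the fewest counts, and 5.45 with ivermectin in day 7 male replicate 3.

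In day 1 replicate 3, WBGene00230800 was at 143 CPM in albendazole females, above the other 3 libraries. WBGene00255534 was at 12.4 CPM in diethylcarbamazine males, again above the other 3. In females edgeR's test of the difference between days in the replicate 3 effect called 67 of 149 members, 45% against 49.8% of all genes. Among these are the 2 members named for day 1. They were chosen by the day 1 contrast in the same libraries, so their day differences were partly set by that choice. WBGene00230800 differed by -1.58 on the log2 scale (edgeR adjusted p = 0.000153) and WBGene00227825 by -1.11 (edgeR adjusted p = 0.00084), day 1 minus day 7. WBGene00230800 was lower in 4 of 4 replicate 3 libraries at day 1 and higher in 4 of 4 at day 7.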

How the results depend on the processing

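Stage differences in drug-treated worms kept their counts under every alternative run: 150 members higher in males, 149 to 150 higher in microfilariae, and 92 to 115 called between males and microfilariae. With other choices of untreated libraries or scaling the rule shared 121 to 143 of the 150 members, and on the libraries of a drug 117 to 124. The replicate block moved the female day count from 0 to 10 members and no other count of members by over 1.5 times; day and drug counts were 0 elsewhere, except that male drug counts ran from 0 to 27 over left-out libraries. Counts in the replicate contrasts moved most, along with those of all genes, and the cause was not tested. With drug-treated libraries only, the counts were 24 (day 1 females, 16.3% against 19.8% of all genes), 3 (day 7 females), 0 (day 1 males) and 14 (day 7 microfilariae). Without albendazole they were 0 in day 1 males and 5 and 9 in day 1 and day 7 microfilariae. Without diethylcarbamazine they were 12 (8.16%, against 14.4% of all genes) and 3 in day 1 and day 7 females. Without ivermectin they were 16 in day 1 females (10.9%, against 16.5% of all genes), 0 and 11 in day 1 and day 7 males, and 4 and 19 in day 1 and day 7 microfilariae. Without the libraries that stood apart, an alternative added after the data were seen, they were 0 in day 1 females and day 1 males. DESeq2 called 30 in day 1 males. Some counts rose with treatments left out. Without albendazole there were 82 in day 1 females (55.8%, against 68% of all genes). Without diethylcarbamazine there were 15 in day 1 males (10%, against 3.56%) and 45 in day 7 microfilariae (30%, against 25.6%). Of 165 values of single named members under alternatives, 145 stayed on the same side of the threshold, 20 lost the call and 0 reversed.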
